A study of Homo sapiens with 60 samples.

Results

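Nuclear genes for the subunits of oxidative phosphorylation were followed in A549 cells, a human lung carcinoma line, after exposure to 8 herbal extracts. The members were the protein-coding genes whose symbols begin with NDUFA, NDUFB, NDUFC, NDUFS or NDUFV (complex I), equal SDHA, SDHB, SDHC or SDHD (complex II), or begin with UQCR (complex III), COX4 to COX8 (complex IV) or ATP5 (complex V, the ATP synthase). Assembly factors were left out. The rule used symbols only, but the set was chosen with earlier results of these data known. It gave 90 members among 60675 gene identifiers. By symbol prefix, 40 fall under complex I, 4 under complex II, 9 under complex III, 17 under complex IV and 20 under complex V. NDUFA4, which associates with complex IV, and its paralog NDUFA4L2 are therefore counted under complex I. The filter on low counts kept 84 of the 90: every member of complexes I, II and III, 12 of complex IV and 19 of complex V. COX4I2, COX6A2, COX7A1, COX7B2, COX8C and ATP5MGL did not pass it and were not tested.

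Complexes I to IV form the respiratory chain of the inner mitochondrial membrane. Electrons from NADH enter at complex I and those from succinate at complex II, pass through complex III and cytochrome c, and reach oxygen at complex IV, while protons are moved across the membrane. Complex V lets the protons back through a rotating ring of c subunits and makes ATP in its F1 head. The subunits described here are coded in the nucleus and imported. A small set of membrane subunits of complexes I, III, IV and V is coded by mitochondrial DNA.

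The libraries come from cells exposed for 24 h. Each extract was given at 3 doses, 20, 100 and 500 µg/mL for most, 15.2, 76 and 380 µg/mL for Polygalae Radix and 14.8, 74 and 370 µg/mL for Aucklandiae Radix, called low, medium and high here. Yijin-tang and Soshiho-tang are multi-herb decoctions extracted with water, and Zizyphi Semen, Longan Arillus, Polygalae Radix, Aucklandiae Radix, Schisandrae Fructus and Liriopis seu Ophiopogonis Tuber are single herbs extracted with ethanol. Vehicle cells, exposed to DMSO at 0.1% per the sample labels (the series text gives 2%), had 3 libraries. The labels of the extract libraries give no DMSO percentage, so whether solvent differed from vehicle cannot be told from them. Yijin-tang, Schisandrae Fructus, Liriopis seu Ophiopogonis Tuber, Zizyphi Semen and Longan Arillus had 3 libraries a dose, Soshiho-tang had 2, and Polygalae Radix and Aucklandiae Radix had 1 a dose. All groups are the same unmodified line. Whether the replicates of a group came from different cultures is not stated, and the p-values therefore reflect variation among libraries that may be technical only.

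Library names carry a set number, and all 3 vehicle libraries lie in a set of their own. Yijin-tang and Soshiho-tang share set 8, Liriopis seu Ophiopogonis Tuber and Schisandrae Fructus set 9, Longan Arillus and Zizyphi Semen set 10, and Polygalae Radix and Aucklandiae Radix set 11. Set and exposure therefore cannot be told apart in any comparison with vehicle, while the high dose against the low dose lies within a set. In these bulk cultures levels are shares of a library's counts, so neither cell number nor total RNA per cell can be read from them. Library totals ran from 18.003 to 33.832 in units of 1000000 expected counts, with a median of 23.897. The name A549 was taken from the data labels, and marker genes cannot identify the line. Epithelial markers, mostly the keratins KRT8, KRT18 and KRT7, summed to 8408 to 8784 counts per 1000000 (CPM) in vehicle libraries. In the same list CDH1 had 33.3 to 34.8 CPM, KRT19 27.0 to 27.9 CPM and EPCAM 4.31 to 5.06 CPM. Fibroblast markers summed to 34.9 to 35.8 CPM, leukocyte markers to 13.6 to 15.5 CPM and endothelial markers to 0.421 to 0.515 CPM. Alveolar type 2 markers summed to 1.09 to 1.15 CPM, and the surfactant genes SFTPA1 and SFTPA2 were at 0.

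A pair of libraries stood apart and were left out of every value below unless said otherwise. Soshiho-tang medium replicate 3 had a summed member level of 12100 CPM, and Longan Arillus low replicate 3 had 18260 CPM, against 7262 to 7353 CPM in vehicle. Their members' medians lay 0.859 and 1.362 above vehicle on the log2 scale. In both, short transcripts were raised over long ones. For each library, the difference of log2 CPM from the mean of the 58 libraries used was set against log2 transcript length. The slope was −0.402 and −0.509 in this pair, while the 58 libraries used lay between −0.0862 and 0.089. The members are short, with a median transcript length of 751.5 bases against 2557 bases over tested protein-coding genes. Keeping both libraries raised the fitted dispersion to 0.0173, against 0.00244 without them, and left 0 members called for Yijin-tang, Schisandrae Fructus, Longan Arillus and Liriopis seu Ophiopogonis Tuber, 3 for Soshiho-tang (1 higher, 2 lower) and 1 for Zizyphi Semen at the high dose against vehicle. The low dose of Longan Arillus then had 51 members higher and 4 lower than vehicle, that of Zizyphi Semen 1 higher and 4 lower, and the low doses of the other 4 extracts 0. The high dose against the low dose then had 2 members higher and 59 lower with Longan Arillus, 1 higher with Soshiho-tang and 0 with Schisandrae Fructus.

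Promoters are shown for 1 member of each complex, the member with a sequence that was lower in the most high-dose comparisons with vehicle (ties went by the low dose), because many members moved together. Each run has 250 bases before the transcription start and 20 after it, read 5′ to 3′ on the gene's strand, from RefSeq on GRCh38.p14, whose promoter table held 71 of the 90 members. Capitals mark matches on either strand to 3 motifs of factors known to bind promoters of respiratory genes, NRF1 (GCGCA, any base, then GCGC), ETS factors such as GABPA (CCGGAAG) and YY1 (AAGATGGC).
NDUFA9, chr12:4648864-4649133, plus strand: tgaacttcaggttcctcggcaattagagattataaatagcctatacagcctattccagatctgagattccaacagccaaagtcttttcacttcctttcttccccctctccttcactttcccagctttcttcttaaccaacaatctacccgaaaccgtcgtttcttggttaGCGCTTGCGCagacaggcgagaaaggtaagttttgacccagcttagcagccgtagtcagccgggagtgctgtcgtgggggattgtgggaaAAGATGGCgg
SDHA, chr5:218070-218339, plus strand: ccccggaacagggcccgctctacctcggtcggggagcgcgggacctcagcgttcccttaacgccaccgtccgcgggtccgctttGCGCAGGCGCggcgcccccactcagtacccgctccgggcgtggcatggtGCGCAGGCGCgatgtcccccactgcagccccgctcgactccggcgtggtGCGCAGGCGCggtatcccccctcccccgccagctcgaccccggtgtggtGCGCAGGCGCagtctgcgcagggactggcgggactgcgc
UQCRH, chr1:46303448-46303717, plus strand: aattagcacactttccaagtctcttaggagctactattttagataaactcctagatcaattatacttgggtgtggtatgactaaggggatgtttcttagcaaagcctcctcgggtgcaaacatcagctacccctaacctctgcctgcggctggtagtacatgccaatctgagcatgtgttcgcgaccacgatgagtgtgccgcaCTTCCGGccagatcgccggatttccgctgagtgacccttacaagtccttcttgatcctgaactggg
COX8A, chr11:63974370-63974639, plus strand: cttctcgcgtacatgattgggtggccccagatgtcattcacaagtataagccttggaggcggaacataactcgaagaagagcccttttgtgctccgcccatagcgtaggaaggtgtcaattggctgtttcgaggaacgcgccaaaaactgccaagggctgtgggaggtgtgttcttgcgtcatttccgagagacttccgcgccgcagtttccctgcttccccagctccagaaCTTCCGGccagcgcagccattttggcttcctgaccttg
ATP5F1A, chr18:46104208-46104477, minus strand: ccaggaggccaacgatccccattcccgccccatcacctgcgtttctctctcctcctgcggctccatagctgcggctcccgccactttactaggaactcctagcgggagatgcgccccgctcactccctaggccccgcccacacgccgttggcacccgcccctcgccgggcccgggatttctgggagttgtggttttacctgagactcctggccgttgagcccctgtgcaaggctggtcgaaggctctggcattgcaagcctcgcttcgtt

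The SDHA window held 4 NRF1 matches, NDUFA9 held an NRF1 match and a YY1 match just after its start, and UQCRH and COX8A each held an ETS match on the opposite strand. ATP5F1A had none of these letters in this window. Outside the rule for the members shown, ATP5PO of complex V had an NRF1 and a YY1 match. It was lower in 4 of 6 comparisons at the high dose and 5 at the low dose, against 5 and 4 for ATP5F1A. Over windows of 250 bases before to 50 after the start, an NRF1 match was present in 17 of 71 members (23.9%) and in 8.58% of 15843 promoters in the table. The ETS motif was found in 20 members (28.2%, against 14.2% of all promoters) and the YY1 motif in 11 (15.5%, against 3.91%). The core of the hypoxia response element, ACGTG, was found in 18 members (25.4%, against 23.7%). Of 26 members lower in 3 or more high-dose comparisons with vehicle, 6, 10, 4 and 7 held these motifs in this order. Of 26 members lower in 0 of them, 3, 5, 4 and 7 did, and the difference was not tested. A match describes the letters only and is not a measured binding site.

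In vehicle cells the members were among the abundant messages. Their median level was 67.2 CPM per kb of transcript, against 8.26 CPM per kb over 13788 tested protein-coding genes. The highest level per length belonged to ATP5F1B, the catalytic beta subunit of the F1 head, at 512 CPM per kb, followed by COX6B1, a complex IV subunit facing the intermembrane space, at 504 CPM per kb. SDHC, a membrane anchor of complex II, led its complex at 234 CPM per kb, NDUFS8, an iron-sulfur subunit, led the complex I core at 149 CPM per kb, and UQCRB led complex III at 159 CPM per kb.

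Tissue isoforms were strongly unequal. In the 3 vehicle libraries COX4I1 had 167, 166 and 174 CPM, and COX4I2, its lung and hypoxia-linked isoform, was at 0 in vehicle with a highest value of 0.0916 CPM over 58 libraries. COX6A1 had 176, 190 and 167 CPM in vehicle, and its muscle isoform COX6A2 was at 0 there. COX6B1 had 280, 289 and 289 CPM, against 0.618, 0.799 and 0.421 CPM for COX6B2, the testis isoform.
The same one-sided pattern held in the remaining complex IV pairs: only the ubiquitous isoform reached levels above 1 CPM in vehicle. COX7A2 had 64.3, 63.4 and 61.1 CPM, against 0.206, 0.118 and 0.316 CPM for the muscle isoform COX7A1, and COX7B had 84.1, 90.9 and 79.9 CPM while COX7B2 was at 0. COX8A had 148, 148 and 145 CPM and COX8C was at 0 in all 58 libraries. The c ring gene ATP5MC2, at 208, 203 and 220 CPM, stood above ATP5MC3 at 133, 135 and 137 CPM and ATP5MC1 at 110, 110 and 107 CPM. Per length the order was ATP5MC2 at 259, ATP5MC1 at 202 and ATP5MC3 at 160 CPM per kb.

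Summed over all 90 members, every replicated extract group averaged below vehicle. Vehicle libraries summed to 7307 ± 45.4 CPM (SD, n = 3). At the low, medium and high dose the means were 6823 ± 93.3, 6877 ± 224 and 6754 ± 137 CPM with Yijin-tang (n = 3 each), and 6806 ± 180, 6835 ± 38.6 and 6585 ± 234 CPM with Liriopis seu Ophiopogonis Tuber (n = 3 each). With Schisandrae Fructus they were 6728 ± 277, 6889 ± 371 and 6994 ± 236 CPM (n = 3 each), and the highest medium library, at 7317 CPM, fell within the vehicle range.
Soshiho-tang, Longan Arillus and Zizyphi Semen lay lower at some doses. Soshiho-tang gave 6679 ± 232 CPM at the low dose (n = 2), 6649 CPM in its 1 medium library used and 6433 ± 177 CPM at the high dose (n = 2). Longan Arillus gave 6610 ± 112 (n = 2), 6638 ± 125 and 6847 ± 222 CPM (n = 3 each), and Zizyphi Semen 6577 ± 97, 6442 ± 167 and 6693 ± 72.9 CPM (n = 3 each). These means were 4.28% to 12% below vehicle, a narrow band with no common order by dose. Beside them, the slope on transcript length was −0.0084 to 0.0049 in vehicle, −0.0088 to 0.0462 in set 8, −0.0426 to 0.0373 in set 9 and −0.0862 to 0.028 in set 10, and a length-adjusted fit is given below.

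**Figure D1:**
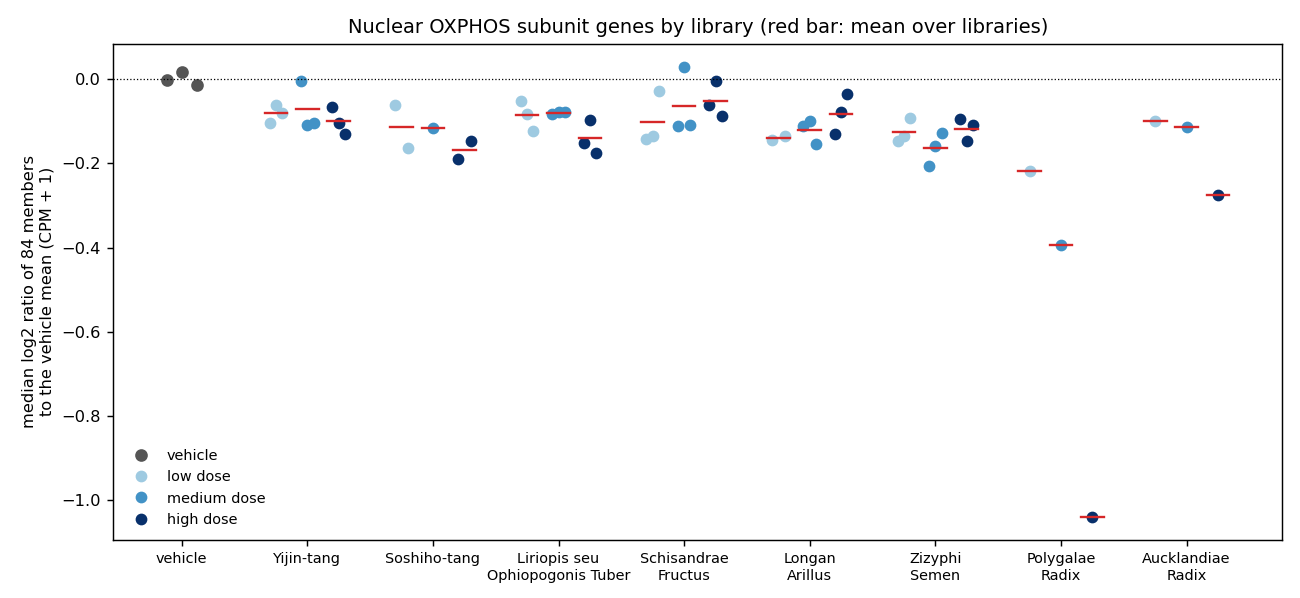
Median log2 ratio of the 84 tested members to the vehicle mean in each of the 58 libraries (y axis; 1 CPM added), by extract and dose along the x axis; each point is 1 library and red bars are means over libraries. Vehicle libraries lie between −0.015 and 0.017, libraries of the replicated extracts between −0.206 and 0.03, and Polygalae Radix falls with dose.

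At the high dose against vehicle, many more members were called lower than higher. A gene was called at an adjusted p below 0.05 in edgeR's quasi-likelihood test with Benjamini-Hochberg adjustment over 17646 genes. Soshiho-tang had 43 of 84 members lower and 2 higher (51.2% lower), where 11.7% of all tested genes were called lower and 10.7% higher. Zizyphi Semen had 35 lower and 0 higher (41.7% lower), beside 13.4% and 9.65% of all genes, and Liriopis seu Ophiopogonis Tuber 33 lower and 0 higher (39.3% lower), beside 4.85% and 2.74%.
The other 3 extracts called fewer members. Longan Arillus had 23 lower and 1 higher (27.4% lower), beside 8.61% and 5.76% of all genes. Yijin-tang had 14 lower and 0 higher (16.7% lower), beside 4.35% and 3.19%, and Schisandrae Fructus 4 lower and 0 higher (4.76% lower), near its background of 5.19% and 4.39%. The median log2 fold changes of the 84 members were −0.16, −0.11, −0.13, −0.09, −0.10 and −0.06 in the order of these 6 extracts, where the median over all tested genes was 0 to 2 decimals, and the median standard error per member was 0.0574 to 0.0662. The 6 comparisons share the 3 vehicle libraries, so they are not independent. In a fit with an offset for transcript length, 41, 40, 28, 31, 15 and 9 members were lower in the same order, with medians of −0.13, −0.12, −0.10, −0.10, −0.09 and −0.06.

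Counts resting on few libraries moved with them. Without Soshiho-tang high replicate 2, 16 members were called for that extract at the high dose. Without Liriopis seu Ophiopogonis Tuber high replicate 3 the count was 10, and without vehicle replicate 1 it was 17. For Yijin-tang the count was 7 without vehicle replicate 2, 6 without vehicle replicate 3, and 7, 9 and 8 without high replicates 1, 2 and 3. For Schisandrae Fructus it was 2 without any 1 vehicle library or without high replicate 3.

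**Figure D2:**
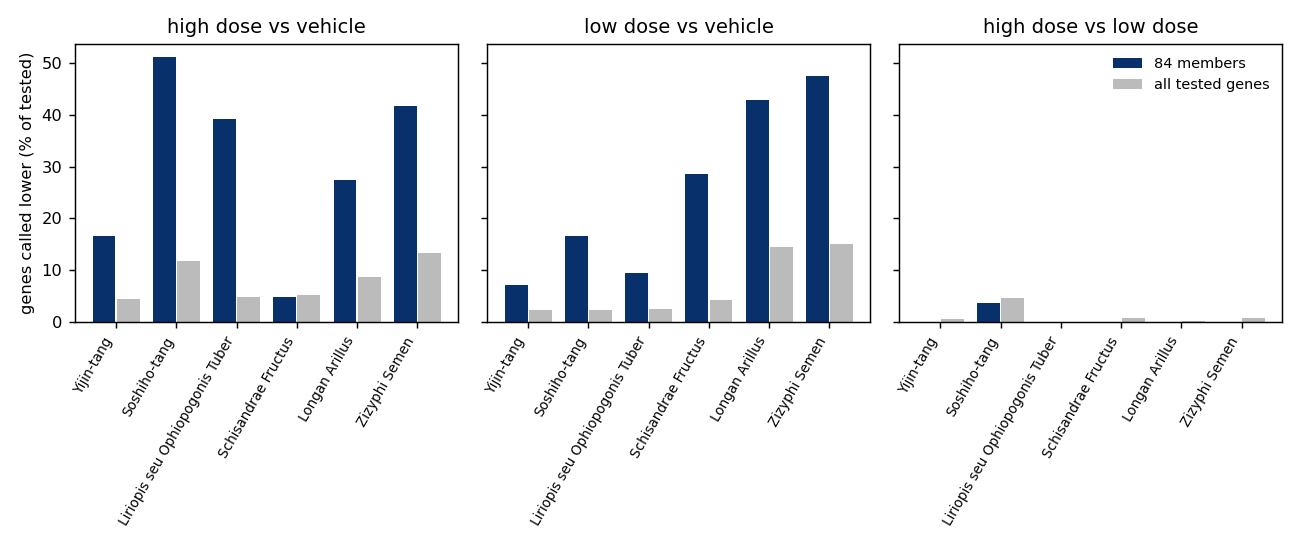
Share of the 84 tested members and of all 17646 tested genes called lower (y axis, percent) for the high and low doses of 6 extracts against vehicle and for high against low. The members' share lies above that of all genes for every extract against vehicle except Schisandrae Fructus at the high dose (4.76% against 5.19%).

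Complex I, which takes electrons from NADH, had 15 of 40 members lower with Soshiho-tang, Liriopis seu Ophiopogonis Tuber and Zizyphi Semen each, 11 with Longan Arillus, 6 with Yijin-tang and 2 with Schisandrae Fructus. Among its 30 accessory subunits, which surround the catalytic core, 11, 12, 10, 9, 6 and 1 were lower in that order of extracts, and among the 7 core subunits, which carry the flavin and iron-sulfur centres, 3, 2, 4, 1, 0 and 1. The accessory subunit NDUFA9 (chr12:4649095-4694317, plus strand, GENCODE 29 on GRCh38), which binds nucleotide near the junction of the arms, was lower with each extract. It had 65.2, 66.7 and 66.7 CPM with Yijin-tang, 59.9 and 63.3 CPM with Soshiho-tang, 66.9, 69.3 and 64.7 CPM with Liriopis seu Ophiopogonis Tuber, 68.1, 68.7 and 68.8 CPM with Schisandrae Fructus, 66.2, 62.7 and 63.9 CPM with Longan Arillus and 58.4, 61.2 and 61.5 CPM with Zizyphi Semen, against 75.6, 71.6 and 76.4 CPM in vehicle. No high-dose library reached the lowest vehicle library. The log2 fold changes were −0.17, −0.27, −0.15, −0.12, −0.21 and −0.30 in the same order, with adjusted p from 5.66e-08 with Zizyphi Semen to 0.0235 with Schisandrae Fructus. The Schisandrae Fructus call was lost without vehicle replicate 1 or 3 (adjusted p 0.109 and 0.129), without each high-dose library (0.0829, 0.0697 and 0.0525) and without the filter on low counts (0.159). The Liriopis seu Ophiopogonis Tuber call was lost without vehicle replicate 1 (0.0624) or high replicate 3 (0.064).

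Small accessory subunits gave the largest falls in complex I. NDUFA1, needed for assembly of the membrane arm, had 40.3, 42.3 and 38.7 CPM with Zizyphi Semen at the high dose, against 54.5, 53.7 and 54.1 CPM in vehicle (log2 fold change −0.42 ± 0.0872 SE, adjusted p 0.000547). It had 42.9, 44.6 and 35.1 CPM with Liriopis seu Ophiopogonis Tuber (−0.40, adjusted p 0.003, and 0.0535 without high replicate 3) and 37.7 and 44.4 CPM with Soshiho-tang (−0.40 ± 0.099, adjusted p 0.00272, and −0.28 with adjusted p 0.14 without high replicate 2). All of these libraries lay below vehicle.
NDUFA2 had 18.7, 16.6 and 16.3 CPM with Liriopis seu Ophiopogonis Tuber, 18.6, 19.4 and 17.9 CPM with Yijin-tang and 17.6, 17.9 and 18.8 CPM with Longan Arillus, against 23.1, 22.8 and 22.1 CPM in vehicle, with log2 fold changes of −0.39, −0.28 and −0.32 (adjusted p 0.000137, 0.00547 and 0.000837). NDUFA8 had 24.8 and 28.2 CPM with Soshiho-tang and 31.1, 31.0 and 29.3 CPM with Yijin-tang, against 34.6, 34.3 and 36.7 CPM in vehicle, with log2 fold changes of −0.41 ± 0.0695 and −0.20 ± 0.0606 (adjusted p 1.31e-05 and 0.0278). The Yijin-tang call for NDUFA8 was lost without vehicle replicate 1 or 3 (adjusted p 0.0541 and 0.138) and without each high-dose library (0.0596, 0.0531 and 0.142). NDUFAB1, the mitochondrial acyl carrier protein, had 31.1, 31.3 and 31.8 CPM with Zizyphi Semen, against 40.8, 39.8 and 41.1 CPM in vehicle (−0.37 ± 0.0621, adjusted p 2.18e-05). For each of these genes the groups named did not overlap with vehicle.

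NDUFB2, a membrane-arm subunit, had 35.3, 36.9 and 37.7 CPM with Longan Arillus, against 44.8, 45.9 and 46.3 CPM in vehicle (−0.32 ± 0.0621, adjusted p 0.000397). NDUFS1, the largest iron-sulfur subunit and the most counted gene of complex I in vehicle, had 104, 106 and 106 CPM with Zizyphi Semen (−0.26, adjusted p 4.96e-07) and 122, 114 and 115 CPM with Schisandrae Fructus (−0.11, adjusted p 0.0329), against 124, 127 and 128 CPM in vehicle. Both groups lay below vehicle in every library, and the Schisandrae Fructus group came close to it. With Schisandrae Fructus the call was lost without any 1 vehicle library (adjusted p 0.0517, 0.101 and 0.121), without high replicate 2 or 3 (0.202 and 0.119) and without the filter on low counts (0.153).

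Soshiho-tang had 2 members counted under complex I called higher. NDUFA4L2 (chr12:57234903-57240715, minus strand), a hypoxia-responsive paralog of the complex IV-associated NDUFA4, had 3.94 and 2.62 CPM at the high dose, against 1.72, 1.78 and 1.26 CPM in vehicle. The log2 fold change was 1.04 ± 0.241 (adjusted p 0.000935), and without high replicate 2 it was 0.72 (adjusted p 0.127). Both high-dose libraries lay above vehicle at a level that remained low.
NDUFA4 itself had 85.2 and 92.0 CPM with Soshiho-tang at the high dose, against 111, 106 and 104 CPM in vehicle (−0.27, adjusted p 0.000651, and 0.054 without high replicate 2). NDUFA7, an accessory subunit, had 22.6 and 20.5 CPM, against 16.8, 18.1 and 17.95 CPM in vehicle (0.29 ± 0.108, adjusted p 0.0471), and this call was lost when any 1 library was left out. The read-through entry ATP5MF-PTCD1, which shares exons with ATP5MF and is therefore uncertain, had 9.54 and 9.53 CPM, against 11.8, 12.8 and 13.1 CPM in vehicle (−0.40 ± 0.141, adjusted p 0.0367). That call was lost without vehicle replicate 2 or 3 (adjusted p 0.0804 and 0.0952) and without either high-dose library (0.173 and 0.158).

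Complex II, succinate dehydrogenase, had all 4 members lower with Soshiho-tang at the high dose, against 2 with Liriopis seu Ophiopogonis Tuber and Zizyphi Semen each, 1 with Yijin-tang and Longan Arillus each and 0 with Schisandrae Fructus. The flavoprotein SDHA had 86.4 and 89.7 CPM with Soshiho-tang, against 106, 106 and 103 CPM in vehicle (−0.25 ± 0.0462, adjusted p 3.91e-05), and the membrane anchor SDHD had 33.4 and 36.9 CPM, against 43.3, 42.8 and 43.0 CPM (−0.29 ± 0.0533, adjusted p 4.56e-05). The iron-sulfur subunit SDHB (−0.16, adjusted p 0.0154) and the anchor SDHC (−0.17, adjusted p 0.00232) moved less, and the SDHB call was lost without vehicle replicate 1 or 2 (adjusted p 0.0695 and 0.054) or high replicate 2 (0.203). In each of these genes both Soshiho-tang libraries lay below all vehicle libraries.

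Complex III, which hands electrons from ubiquinol to cytochrome c, had 7 of 9 members lower with Soshiho-tang, 5 with Zizyphi Semen, 4 with Liriopis seu Ophiopogonis Tuber and Longan Arillus each, 3 with Yijin-tang and 0 with Schisandrae Fructus. UQCRQ, a ubiquinone-binding small subunit, had 43.2, 40.1 and 41.6 CPM with Zizyphi Semen, 46.6, 46.7 and 41.4 CPM with Liriopis seu Ophiopogonis Tuber and 43.8, 43.2 and 47.3 CPM with Longan Arillus, against 56.2, 54.2 and 57.7 CPM in vehicle. The log2 fold changes were −0.43, −0.32 and −0.32 (adjusted p 0.000123, 0.0089 and 0.00433), with no overlap with vehicle. With Liriopis seu Ophiopogonis Tuber it was −0.27 with an adjusted p of 0.0844 without high replicate 3. UQCRH, the acidic hinge subunit, had 65.6 and 68.1 CPM with Soshiho-tang and 67.5, 67.8 and 63.9 CPM with Liriopis seu Ophiopogonis Tuber, against 77.2, 81.3 and 82.1 CPM in vehicle, with log2 fold changes of −0.26 and −0.27 (adjusted p 0.0004 and 0.000332). With Schisandrae Fructus it had 73.6, 76.8 and 70.4 CPM and did not pass (adjusted p 0.11). UQCRHL, a near copy of UQCRH at 6.66, 7.46 and 6.98 CPM in vehicle, may share reads with it.

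Complex IV, which reduces oxygen, had 6 members lower with Soshiho-tang, 5 with Liriopis seu Ophiopogonis Tuber and Zizyphi Semen each, 3 with Longan Arillus, 1 with Yijin-tang and 0 with Schisandrae Fructus, among 12 tested. COX8A, a small membrane subunit, was lower with all 5 of the extracts that called any. It had 131, 123 and 124 CPM with Yijin-tang, 119 and 125 CPM with Soshiho-tang, 124, 125 and 108 CPM with Liriopis seu Ophiopogonis Tuber, 122, 119 and 119 CPM with Longan Arillus and 121, 116 and 115 CPM with Zizyphi Semen, against 148, 148 and 145 CPM in vehicle. The log2 fold changes were −0.22, −0.27, −0.30, −0.29 and −0.33, with adjusted p from 2.59e-06 with Zizyphi Semen to 0.00167 with Yijin-tang. With Schisandrae Fructus its libraries, at 135, 139 and 132 CPM, were also below vehicle but the gene was not called.
COX7C had 79.4, 76.7 and 81.3 CPM with Zizyphi Semen, against 102, 98.3 and 107 CPM in vehicle (−0.37 ± 0.0754, adjusted p 0.000393). Its 3 libraries stood clear of vehicle.

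Complex V had 11 of 19 members lower with Soshiho-tang, 8 with Zizyphi Semen, 7 with Liriopis seu Ophiopogonis Tuber, 4 with Longan Arillus, 3 with Yijin-tang and 2 with Schisandrae Fructus. The catalytic subunit ATP5F1B (chr12:56638175-56646068, minus strand) had 828, 838 and 803 CPM with Yijin-tang, 726 and 786 CPM with Soshiho-tang, 832, 843 and 750 CPM with Liriopis seu Ophiopogonis Tuber, 836, 838 and 818 CPM with Schisandrae Fructus, 797, 819 and 817 CPM with Longan Arillus and 813, 801 and 778 CPM with Zizyphi Semen, against 925, 938 and 963 CPM in vehicle. Every high-dose library lay below every vehicle library. The log2 fold changes were −0.19, −0.32, −0.22, −0.18, −0.22 and −0.24, with adjusted p from 1.57e-08 with Soshiho-tang to 0.000237 with Schisandrae Fructus. ATP5PB, a stator subunit of the peripheral stalk, had 72.7 and 74.9 CPM with Soshiho-tang (−0.33, adjusted p 4.65e-07) and 83.5, 86.7 and 78.8 CPM with Schisandrae Fructus (−0.16 ± 0.0405, adjusted p 0.00815), against 89.9, 95.1 and 92.5 CPM in vehicle. The Schisandrae Fructus call for ATP5PB was lost without vehicle replicate 2 (adjusted p 0.0599) or high replicate 3 (0.088).

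The 3 genes of the c ring, which code for the same mature protein, behaved unequally. ATP5MC3 had 102 and 106 CPM with Soshiho-tang, 113, 112 and 114 CPM with Yijin-tang and 110, 106 and 102 CPM with Zizyphi Semen, against 133, 135 and 137 CPM in vehicle, with log2 fold changes of −0.38, −0.26 and −0.35 (adjusted p 1.41e-06, 0.000509 and 1.56e-06). ATP5MC1 had 84.8 and 89.8 CPM with Soshiho-tang, against 110, 110 and 107 CPM in vehicle (−0.32 ± 0.0655, adjusted p 0.000235). ATP5MC2, the most abundant of them, had 215 and 203 CPM with Soshiho-tang, against 208, 203 and 220 CPM in vehicle, and was not called with any extract. The ATP5MC2 groups overlapped, while those of ATP5MC3 and ATP5MC1 did not. The difference between the c ring genes was not tested. The inhibitor ATP5IF1 was not called either, and ATP5PF, a peripheral stalk subunit, was the member higher with Longan Arillus, at 46.9, 51 and 51.6 CPM against 42.8, 46.8 and 43.4 CPM in vehicle (0.17 ± 0.0569, adjusted p 0.0361). Its lowest exposed library barely exceeded the highest vehicle library, and the call was lost without vehicle replicate 1 or 3 (adjusted p 0.108 and 0.123) or high replicate 2 or 3 (0.135 and 0.182).

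**Figure D3:**
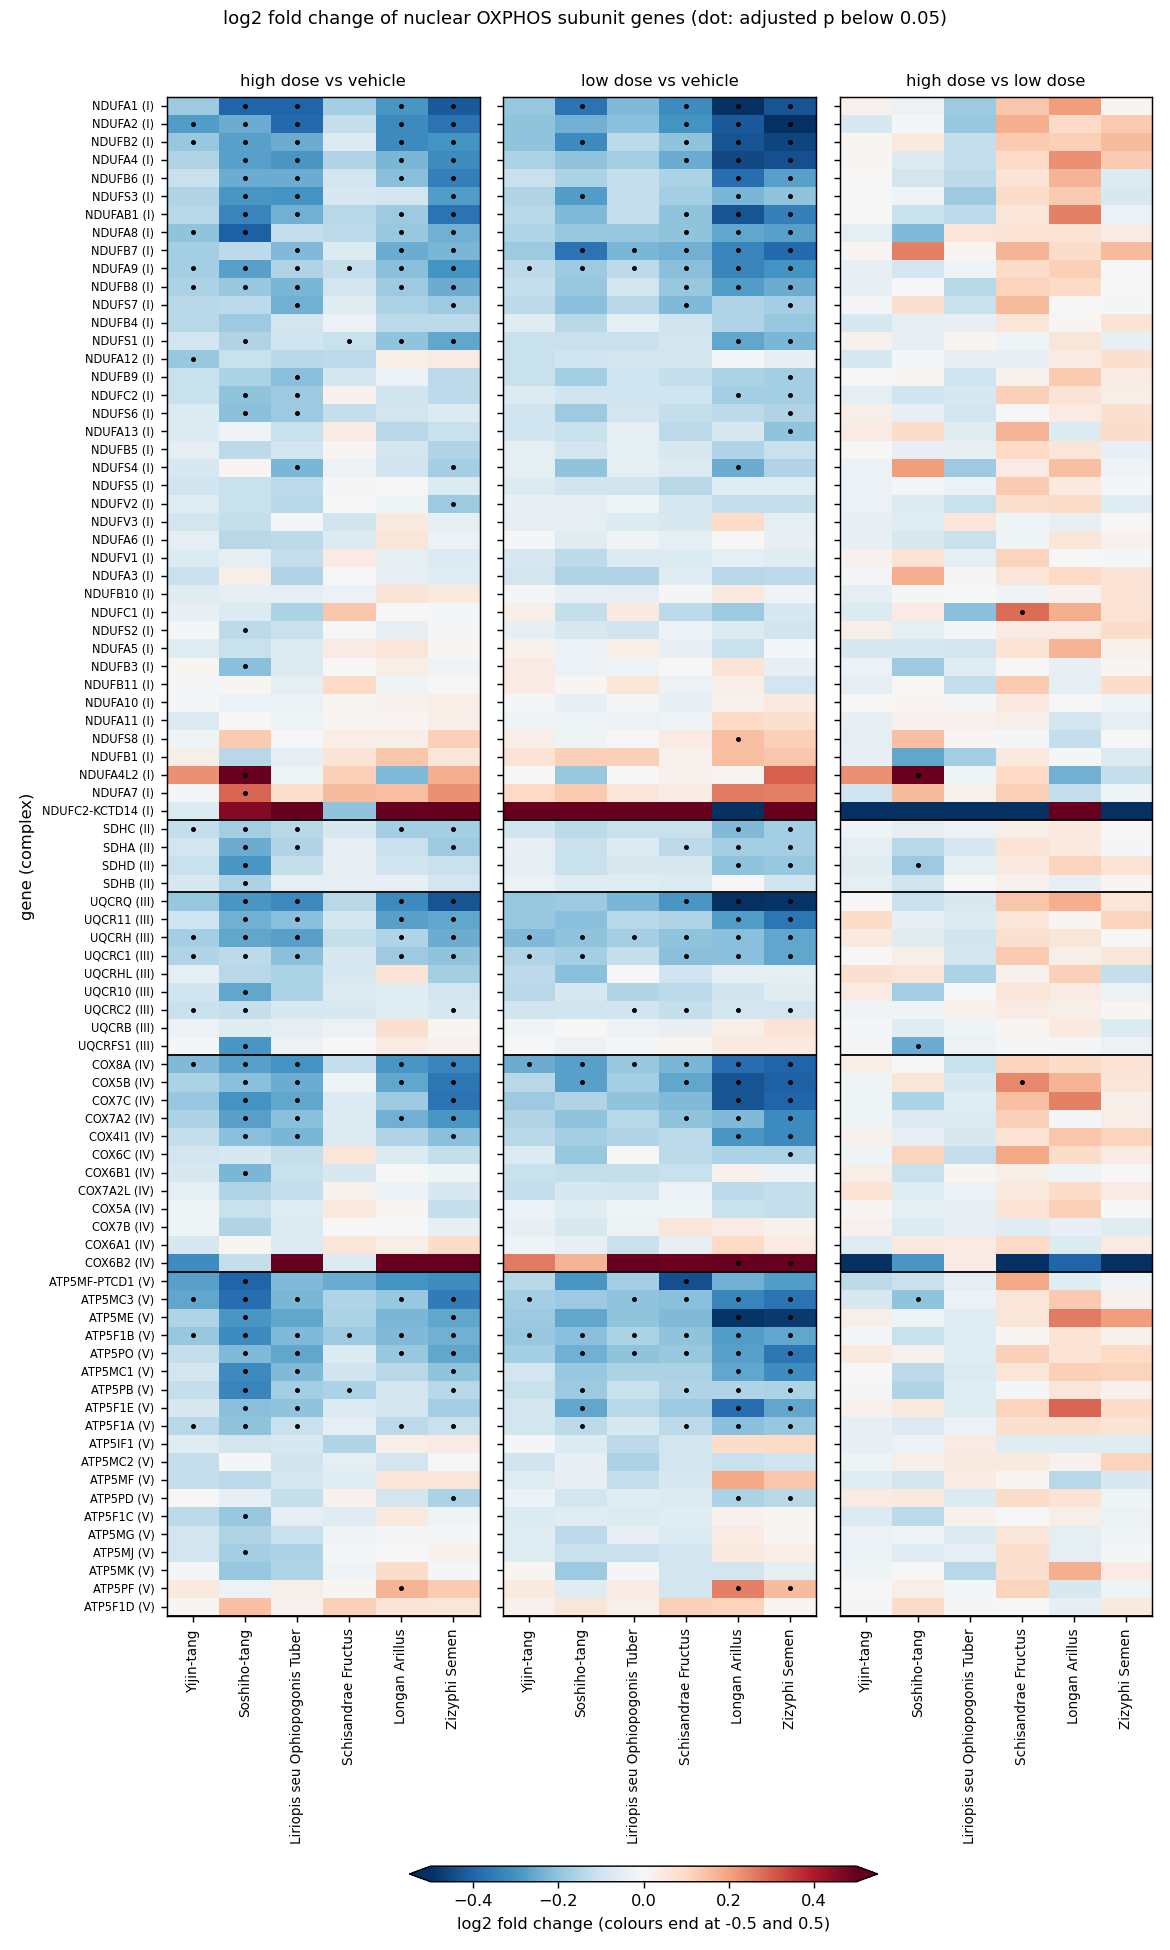
Fitted log2 fold change (colour, ending at −0.5 and 0.5) of each of the 84 tested members (rows, grouped by complex) with 6 extracts (columns), for high against vehicle, low against vehicle and high against low; a dot marks an adjusted p below 0.05. The first 2 panels are mostly blue (lower) with many dots, and the last is pale with 6 dots.

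At the low dose many members were already called lower than vehicle. Zizyphi Semen had 40 members lower and 2 higher (47.6% lower), beside 15.1% and 12.5% of all genes, and Longan Arillus 36 lower and 3 higher (42.9% lower), beside 14.4% and 11.7%. Schisandrae Fructus had 24 lower (28.6%), beside 4.22% of all genes, and Soshiho-tang 14 lower (16.7%), beside 2.29%. Liriopis seu Ophiopogonis Tuber had 8 lower (9.52%), beside 2.45%, and Yijin-tang 6 lower (7.14%), beside 2.26%. No member was called higher with these 4 extracts, where 2.5%, 0.997%, 1.61% and 1.51% of all genes were. The medians of the 84 members were −0.14, −0.15, −0.10, −0.12, −0.10 and −0.09 in this order.
Some of these counts moved by over 1.5 times when 1 library was left out. For Schisandrae Fructus it fell to 14, 13 or 11 without vehicle replicate 1, 2 or 3, to 10 without low replicate 1 and to 12 without low replicate 2. For Soshiho-tang it was 7 without vehicle replicate 2 or 3, 6 without low replicate 2 and 2 without low replicate 3. For Liriopis seu Ophiopogonis Tuber it was 2, 4 and 2 without vehicle replicates 1, 2 and 3 and 1 without low replicate 2 or 3, and for Yijin-tang it was 3 without vehicle replicate 3 or low replicate 1.

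ATP5F1B was among the members called at the low dose, with 794, 841 and 848 CPM with Yijin-tang, 805 and 828 CPM with Soshiho-tang, 870, 837 and 827 CPM with Liriopis seu Ophiopogonis Tuber, 817, 808 and 843 CPM with Schisandrae Fructus, 775 and 770 CPM with Longan Arillus and 805, 790 and 761 CPM with Zizyphi Semen, against 925, 938 and 963 CPM in vehicle. No low-dose library reached vehicle. Its log2 fold changes were −0.19, −0.21, −0.16, −0.20, −0.28 and −0.26, with adjusted p from 2.03e-07 with Zizyphi Semen to 0.00373 with Liriopis seu Ophiopogonis Tuber. Among the members called higher, COX6B2 had 1.33 and 1.21 CPM with Longan Arillus and 1.31, 1.37 and 1.21 CPM with Zizyphi Semen, against 0.618, 0.799 and 0.421 CPM in vehicle (1.03 ± 0.284 and 1.06 ± 0.26, adjusted p 0.00543 and 0.00176). ATP5PF had 49.9 and 55.2 CPM with Longan Arillus and 47.6, 48.4 and 52.2 CPM with Zizyphi Semen, against 42.8, 46.8 and 43.4 CPM in vehicle (0.25 and 0.16, adjusted p 0.00286 and 0.033). NDUFS8 was the remaining one, with Longan Arillus (0.15 ± 0.0533, adjusted p 0.0328). The NDUFS8 call was lost without vehicle replicate 1 or 3 (adjusted p 0.0735 and 0.182) or low replicate 2 (0.405). For ATP5PF the Longan Arillus call was lost without low replicate 2 (0.152), and the Zizyphi Semen call without vehicle replicate 1 or 3 (0.132 and 0.108) or low replicate 3 (0.205). The COX6B2 call with Longan Arillus was lost without low replicate 1 (0.0572).

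Within a set, the high dose against the low dose called few members. With Yijin-tang, Liriopis seu Ophiopogonis Tuber, Longan Arillus and Zizyphi Semen edgeR called 0 of 84, where 1.03%, 0%, 0.0907% and 1.18% of all genes were called (0.533%, 0%, 0.0793% and 0.725% lower). At an unadjusted p below 0.05 these 4 comparisons had 0, 11, 17 and 8 members, and DESeq2 called 0, 0, 2 and 0. Soshiho-tang had 1 member higher and 3 lower (3.57% lower), beside 5.31% and 4.69% of all genes. Its members were thus called no more often than genes at large in either direction. Schisandrae Fructus had 2 higher and 0 lower (2.38% called), beside 0.946% and 0.669%. Member medians were −0.02, −0.06, 0.06, 0.01, −0.04 and 0.06 in this order of extracts, and the median standard error was 0.0587 to 0.0739. For ATP5F1B the adjusted p of high against low was 0.0993 with Soshiho-tang and 0.528 or more with the other 5 extracts.

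UQCRFS1 (chr19:29205321-29213541, minus strand), the Rieske iron-sulfur protein of complex III, was lower at the high dose than at the low dose with Soshiho-tang. Vehicle libraries had 231, 245 and 245 CPM, followed by 244 and 227 CPM at the low dose, 236 CPM in the medium library and 194 and 200 CPM at the high dose. The high-dose libraries lay below all others, and 1 low-dose library lay slightly below vehicle. The change was −0.25 ± 0.0486 against the low dose (adjusted p 0.000218) and −0.29 ± 0.0445 against vehicle (adjusted p 2.63e-06).
With Yijin-tang from the same set, UQCRFS1 had 251, 228 and 235 CPM at the high dose and 238, 242 and 240 CPM at the low dose (−0.01 ± 0.0395), overlapping. The difference between the changes of Yijin-tang and Soshiho-tang was 0.24 ± 0.0626 (adjusted p 0.0189). It was the only member called in that comparison, in which 2.71% of all genes were called. The adjusted p was 0.0681 without Yijin-tang high replicate 1, 0.145 without Soshiho-tang high replicate 2, 0.224 without Soshiho-tang low replicate 2 and 0.0538 without the filter on low counts.

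ATP5MC3 had 123 and 116 CPM at the low dose of Soshiho-tang, 116 CPM at the medium dose and 102 and 106 CPM at the high dose (high against low −0.20 ± 0.0623, adjusted p 0.0297). SDHD had 41.6 and 37.96 CPM at the low dose, 40.1 CPM at the medium dose and 33.4 and 36.9 CPM at the high dose (−0.18 ± 0.0592, adjusted p 0.0494). NDUFA4L2 had 1.94 and 0.873 CPM at the low dose, 1.59 CPM at the medium dose and 3.94 and 2.62 CPM at the high dose (1.23 ± 0.281, adjusted p 0.00203). In all 3 genes the high-dose libraries did not overlap with the low-dose libraries, although the gap was small for SDHD and NDUFA4L2. The adjusted p for NDUFA4L2 was 0.127 without high replicate 2 and 0.157 without low replicate 3. The ATP5MC3 call was lost without any 1 of the 4 libraries, with an adjusted p of 0.24 (high replicate 2 left out), 0.0656 (high replicate 3), 0.285 (low replicate 2) or 0.0577 (low replicate 3).
The SDHD change was −0.11 without high replicate 2 or low replicate 2 (adjusted p 0.516 and 0.503). Its adjusted p was 0.202 without the filter on low counts, 0.0684 in DESeq2, and 0.053 and 0.0671 with the replicate number as a block over all sets and within sets. Without high replicate 2 the member still called was UQCRFS1. UQCRFS1 and NDUFA4L2 were called without low replicate 2, and UQCRFS1 and SDHD without low replicate 3. Without high replicate 3, ATP5F1B, NDUFA4L2, NDUFA8, SDHD and UQCRFS1 were called.

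**Figure D4:**
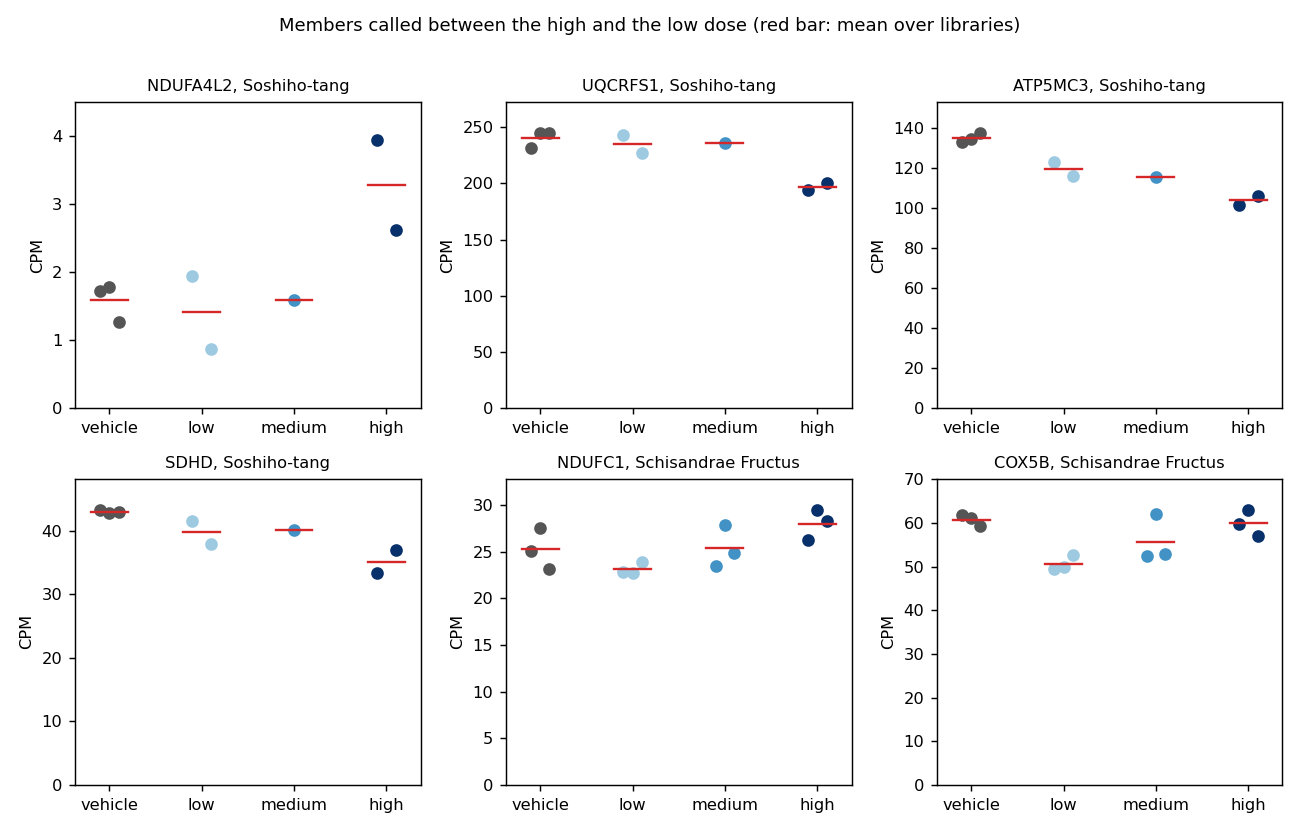
CPM (y axes) of the members called between the high and low dose, at the vehicle, low, medium and high dose (x axis) of Soshiho-tang or Schisandrae Fructus; each point is 1 library and red bars are means. UQCRFS1, ATP5MC3 and SDHD are lowest and NDUFA4L2 highest at the high dose of Soshiho-tang, and NDUFC1 and COX5B are higher at the high dose than at the low dose of Schisandrae Fructus.

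With Schisandrae Fructus both called members were higher at the high dose than at the low dose. NDUFC1 (chr4:139266880-139302551, minus strand), a small membrane-arm subunit of complex I, had vehicle values of 25.1, 27.6 and 23.2 CPM, then 22.8, 22.7 and 23.9 CPM at the low dose, 23.5, 27.9 and 24.8 CPM at the medium dose and 26.3, 29.5 and 28.4 CPM at the high dose (high against low 0.28 ± 0.0665, adjusted p 0.0162). COX5B (chr2:97646040-97648383, plus strand), the zinc-binding subunit of complex IV, had vehicle values of 61.7, 61.1 and 59.4 CPM, then 49.5, 49.96 and 52.6 CPM at the low dose, 52.4, 61.9 and 52.8 CPM at the medium dose and 59.7, 63.0 and 56.9 CPM at the high dose. For COX5B the low dose lay below vehicle (−0.26 ± 0.0634, adjusted p 0.00686), the high dose lay above the low dose (0.24 ± 0.0637, adjusted p 0.0359) and overlapped with vehicle (−0.02 ± 0.0623, adjusted p 0.903). The count of 2 became 1 or 0 whenever any of 5 libraries was left out: 0 without low replicate 1 or high replicate 2, and 1 without low replicate 2, high replicate 1 or high replicate 3. The 1 call was NDUFC1 without high replicate 1, COX5B without high replicate 3 and neither of them without low replicate 2, where UQCRC1 was called (0.17, adjusted p 0.0493), with adjusted p of 0.097 for NDUFC1 and 0.151 for COX5B.
Liriopis seu Ophiopogonis Tuber, of the same set, had NDUFC1 at 22.4, 24.5 and 21.0 CPM at the high dose and 26.0, 27.5 and 25.3 CPM at the low dose (−0.21 ± 0.0692, adjusted p 0.77). The difference between the changes of Liriopis seu Ophiopogonis Tuber and Schisandrae Fructus was −0.48 ± 0.096 (adjusted p 0.00803), the only call among members, beside 0.334% of all genes. It missed the threshold without Schisandrae Fructus high replicate 2 (adjusted p 0.051) and without Liriopis seu Ophiopogonis Tuber high replicate 3 (adjusted p 0.0554). Between Longan Arillus and Zizyphi Semen edgeR called 0 members, beside 0.142% of all genes, with 4 members at an unadjusted p below 0.05 and 0 by DESeq2.

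Polygalae Radix and Aucklandiae Radix had 1 library a dose, so their values carry no test and no replicate check. A member is counted here where it lay at least 1.5-fold from the vehicle mean with 1 CPM added. With Polygalae Radix, 7 members lay lower at 15.2 µg/mL, 23 at 76 µg/mL and 69 at 380 µg/mL, where 1.17%, 3.15% and 18% of all tested genes did. None lay higher at the lower doses, where 1.8% and 2.13% of genes did. At 380 µg/mL 13.2% of genes lay higher, among members only the read-through entry NDUFC2-KCTD14, at 0.948 CPM against 0.343, 0 and 0 CPM in vehicle. The summed level was 6220, 5392 and 3162 CPM at the low, medium and high dose, which is 14.9%, 26.2% and 56.7% below vehicle. The order low, medium, high was descending in 65 of the 84 members.

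**Figure D5:**
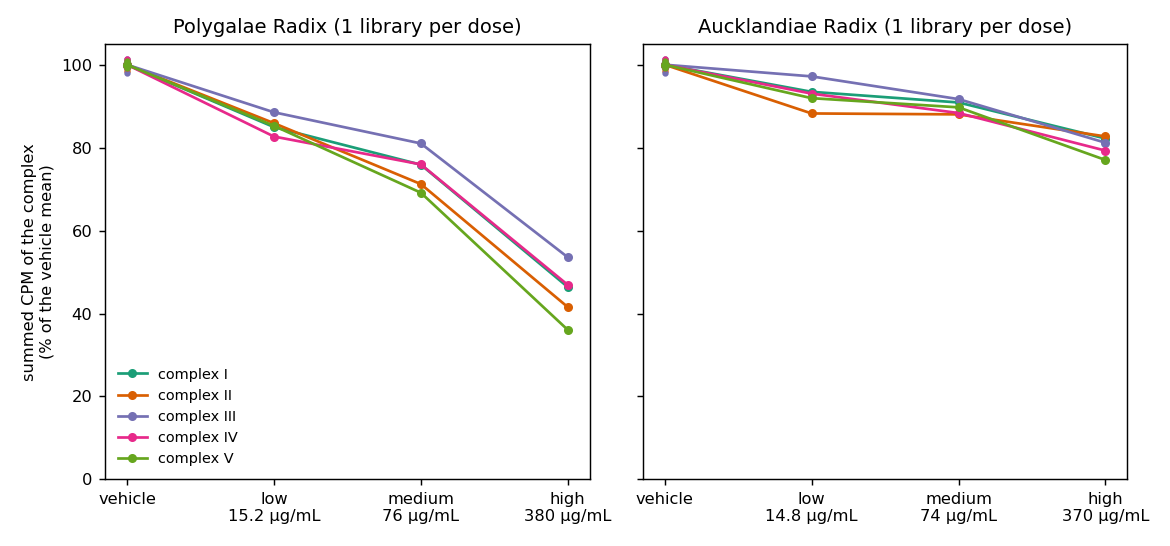
Summed CPM of each complex as a percentage of the vehicle mean (y axis) at the low, medium and high dose (x axis) of Polygalae Radix and Aucklandiae Radix, 1 library a point. At the high dose the 5 complexes lie between 36.1% and 53.6% of vehicle with Polygalae Radix and between 77.0% and 82.7% with Aucklandiae Radix.

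All complexes were low in the high-dose Polygalae Radix library. Complex V stood at 36.1% of its vehicle sum, complex II at 41.6%, complex I at 46.4%, complex IV at 46.9% and complex III at 53.6%. ATP5F1B had 925, 938 and 963 CPM in vehicle, then 731, 549 and 218 CPM at the low, medium and high dose. UQCRC1, a core protein of complex III, had 107, 110 and 112 CPM in vehicle, then 89.0, 57.1 and 19.8 CPM. Among members UQCRC1 had the lowest log2 ratio, −2.41, followed by the F1 alpha subunit ATP5F1A at −2.35 and ATP5F1B at −2.11. The values of both named series descend at each step.
Members differed widely among themselves at this dose. COX7A2L, which helps to join complexes III and IV, lay at −0.14, UQCR11 at −0.31 and UQCRFS1 at −0.43, while UQCRC1 of complex III and COX5B of complex IV lay at −2.41 and −1.83. In the c ring, ATP5MC1 lay at −1.62 and ATP5MC2 at −0.64. Other values moved with this library: epithelial markers summed to 8408 to 8784 CPM in vehicle and to 7763, 4898 and 1300 CPM at the low, medium and high dose, the slope on transcript length was 0.089, and pseudogenes of the same symbol stems reached 0.957% of the member sum, against 0.297% to 0.338% in vehicle. Their part in the result was not tested. Scaling by library totals in place of TMM gave a member median of −0.734 and not −1.04, with the median of all genes at 0.232.

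Aucklandiae Radix showed smaller differences. At 14.8, 74 and 370 µg/mL 0, 1 and 6 members lay at least 1.5-fold lower, where 2.22%, 2.05% and 4.09% of all genes did, 0 lay higher, where 2.01%, 1.58% and 5.25% did, and the member medians were −0.10, −0.11 and −0.28. The 6 at the high dose were ATP5MC1, COX8A, UQCRQ, NDUFA1, UQCRC1 and NDUFA2, from complexes I, III, IV and V. The summed level was 6797, 6574 and 5821 CPM at the low, medium and high dose, and 46 of the 84 members descended in that order. By the same measure the 1 medium Soshiho-tang library had 0 members lower and 0 higher, where 0.306% and 0.272% of genes were, with a member median of −0.12.
Other values moved with the Aucklandiae Radix libraries. Epithelial markers summed to 8408 to 8784 CPM in vehicle, then to 8327, 7449 and 5776 CPM at the low, medium and high dose. Fibroblast markers summed to 34.9 to 35.8 CPM in vehicle, then to 40.9, 36.3 and 24.03 CPM, and leukocyte markers to 13.6 to 15.5 CPM in vehicle, then to 15.9, 16.3 and 32.5 CPM. The slope on transcript length was −0.077, −0.0495 and 0.0051. Their part in the result was not tested.

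Other genes of the pathway were counted in the same fit at the high dose against vehicle. None of the 13 protein-coding genes of mitochondrial DNA, which code for membrane subunits, was called lower. Of them 12 were higher with Zizyphi Semen (median 0.61), 8 with Longan Arillus (0.37), 6 with Liriopis seu Ophiopogonis Tuber (0.36), 3 with Soshiho-tang (0.35) and 0 with Schisandrae Fructus (0.18) and Yijin-tang (0.05). In the last pair of comparisons 3 and 0 of them were at an unadjusted p below 0.05, and DESeq2 called 0. The largest were MT-ND2 and MT-ND1, complex I subunits, with Zizyphi Semen (0.84 ± 0.152, adjusted p 0.000133, and 0.83 ± 0.134, adjusted p 3.18e-05). At the low dose against vehicle 11 were higher with Zizyphi Semen (median 0.55) and 11 with Longan Arillus (0.60). Liriopis seu Ophiopogonis Tuber (0.13) and Soshiho-tang (0.27) had 0, Schisandrae Fructus 1 (0.30) and Yijin-tang 0 (0.13). The 3 extracts with 0 had 2, 9 and 2 genes at an unadjusted p below 0.05, and DESeq2 called 0. Between the high and the low dose edgeR and DESeq2 called 0 of the 13 with any of the 6 extracts, and 0 to 3 were at an unadjusted p below 0.05. The share of mitochondrial messages varied by set, at 8.06% to 10.9% in set 8, 8.88% to 12.3% in set 9, 10.6% to 15.1% in set 10 and 11.7% to 13.0% in set 11, against 8.60% to 8.88% in the vehicle set.
Of 48 assembly factors, which insert cofactors and join modules, 8, 1, 1, 12, 3 and 2 were lower and 1, 0, 0, 0, 0 and 1 higher in this order of extracts, with list medians of −0.06, −0.05, −0.07, −0.11, −0.04 and −0.02. NDUFAF1, a complex I assembly factor, fell by 0.38 on the log2 scale with Soshiho-tang (adjusted p 0.011), and the call was lost without vehicle replicate 3 (0.0572) or either high-dose library (0.0905 and 0.0718). Of 18 citric acid cycle genes 4, 2, 1, 7, 3 and 3 were lower and 3, 1, 0, 4, 1 and 1 higher, and of 15 regulators of mitochondrial biogenesis 2, 3, 1, 4, 2 and 1 were lower and 2, 0, 1, 0, 1 and 1 higher. Among 13 electron carrier genes, such as those of cytochrome c and ubiquinone synthesis, 3, 1, 1, 2, 1 and 1 were lower and 1 was higher, with Zizyphi Semen. CYCS, cytochrome c itself, was lower with all 6, at −0.26, −0.17, −0.20, −0.30, −0.15 and −0.18 in the same order (adjusted p 0.000115, 0.0147, 0.00603, 3.75e-05, 0.0416 and 0.0156). Those of Longan Arillus, Schisandrae Fructus and Yijin-tang were lost without some single libraries, with adjusted p up to 0.0572, 0.168 and 0.23. The backgrounds are those given for the members.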

How the data were processed

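A549 RNA libraries of 25 groups were read as one table of gene-level expected counts. Per the submitters' processing notes the reads were handled with FastQC 0.11.9, Trim Galore 0.6.5, STAR 2.7.3a and RSEM 1.3.3 on hg38 (GRCh38). For the annotation release and the strand setting, the sources used here give nothing. The deposited expected counts were not whole in 10.485% of values and were rounded. Library totals of 18.003 to 33.832 (in units of 1000000 expected counts) set the counting precision.

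Groups came from the sample titles. The fit used edgeR 4.0.16 in R 4.3.3 (filterByExpr, TMM scaling, robust quasi-likelihood F test, Benjamini-Hochberg adjustment over 17646 genes) on 51 libraries in 18 groups, with 21 contrasts, and its code was tested on simulated data. CPM were computed with TMM scaling, and log2 ratios with 1 CPM added. Levels per kb used median transcript lengths of GENCODE 29, which also gave coordinates. Symbols were found for 56558 of 60675 identifiers. Near-identical copies and read-through entries may share reads. Alternatives were DESeq2 1.42.0, no low-count filter, size factors, a transcript-length offset, a replicate block, both left-out libraries kept, library totals and each library left out. The members and lists were chosen with earlier results of these data known. Members given by library were the up to 4 called ones with the largest change in each direction of each high-dose comparison, the most counted of each complex, and the isoform pairs; further members were added by hand as examples. Replicate pairs differed by more than sampling noise, with a chi-square of at least 1.863 per degree of freedom, and none was merged. Among the libraries used, Longan Arillus had the largest values, 4.323 to 16.3 at the high dose and 10.08 to 30.62 at the medium dose. Its low-dose pair had 3.817, and vehicle pairs had 2.431 to 2.988. Its high-dose replicates 1, 2 and 3 had slopes on transcript length of 0.028, −0.0476 and −0.0862.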

Additional observations from a re-analysis of the deposited data

Results flagged for a closer look

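In 2 members the change from the low to the high dose differed between the extracts of a set, by the test of that difference in edgeR. For UQCRFS1, the Rieske protein of complex III, the change with Yijin-tang minus that with Soshiho-tang was 0.24 on the log2 scale. UQCRFS1 was the only member called there (1.19% of 84), and 2.71% of all genes were called, so members were not called more often. The UQCRFS1 call was lost without Yijin-tang high replicate 1, without the filter on low counts and with both left-out libraries kept. The difference was 0.22 without Soshiho-tang high replicate 2 and 0.19 without Soshiho-tang low replicate 2. UQCRFS1 was not called in either of these fits, where Soshiho-tang kept only a single library at that dose. For NDUFC1, a small subunit of complex I, the change with Liriopis seu Ophiopogonis Tuber minus that with Schisandrae Fructus was −0.48. NDUFC1 was the only member called there (1.19% of 84), and 0.334% of all genes were called. The NDUFC1 call was lost without Schisandrae Fructus high replicate 2, without Liriopis seu Ophiopogonis Tuber high replicate 3 and with both left-out libraries kept. No cause was tested for either gene.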

How the results depend on the processing

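With both left-out libraries kept, members called (high against vehicle) were 0 with Yijin-tang, Liriopis seu Ophiopogonis Tuber, Schisandrae Fructus and Longan Arillus, 3 with Soshiho-tang and 1 with Zizyphi Semen. High against low they were 1 (higher) with Soshiho-tang, 0 with Schisandrae Fructus and 61 with Longan Arillus. Low against vehicle they were 55 with Longan Arillus (51 higher), 5 with Zizyphi Semen and 0 with the others, and both differences between extracts had 0. The length offset gave 9 for Schisandrae Fructus high against vehicle and 11 for Soshiho-tang high against low. Without the filter, high against low had 1 (Yijin-tang), 4 (Schisandrae Fructus) and 6 (Longan Arillus), low against vehicle 13 (Yijin-tang), 25 (Soshiho-tang) and 16 (Liriopis seu Ophiopogonis Tuber), and the differences between extracts 0, 7 and 1 by set. DESeq2 gave 2 for Longan Arillus high against low and 4 for Liriopis seu Ophiopogonis Tuber minus Schisandrae Fructus. The main fit did not pair libraries by replicate number. Same-numbered libraries of a set had a median correlation of deviations of 0.044 over 108 pairs (−0.397 to 0.88). For differently numbered libraries of a set it was −0.047 over 214 pairs. By set the same-numbered medians were −0.04 (set 8, 23 pairs), −0.018 (set 9, 45 pairs) and 0.226 (set 10, 40 pairs). Set 10 thus stood apart, and libraries there may be paired. With the number as a block, Liriopis seu Ophiopogonis Tuber minus Schisandrae Fructus had 2 (over all sets) or 3 (within sets). With each library left out, high against vehicle ranged over 6 to 10 (Yijin-tang), 16 to 39 (Soshiho-tang), 10 to 33 (Liriopis seu Ophiopogonis Tuber), 2 to 3 (Schisandrae Fructus), 17 to 22 (Longan Arillus) and 28 to 34 (Zizyphi Semen). High against low ranged over 1 to 5 (Soshiho-tang), 0 to 2 (Schisandrae Fructus) and 0 to 0 (the others). Low against vehicle ranged over 3 to 5, 2 to 10, 1 to 9, 10 to 24, 27 to 38 and 35 to 40 in the same order. The differences between extracts ranged over 0 to 1 (set 8, where without Soshiho-tang low replicate 2 the 1 call was lower), 0 to 3 (set 9) and 0 to 0 (set 10). Of 35 named calls, 33 were lost with both libraries kept, 4 without the filter, 1 under DESeq2 (SDHD, adjusted p 0.0684), 2 with the block over all sets, 1 with the block within sets and 0 under size factors or the length offset. Leaving out 1 library lost 18 of them at least once, in 55 of 206 fits. The cause was not tested.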
